A study of Arabidopsis thaliana with 12 samples.

Results

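The stomatal lineage genes described here are 10 Arabidopsis thaliana loci, listed by name for their known roles in that lineage: SPCH (AT5G53210), MUTE (AT3G06120), FAMA (AT3G24140), EPF1 (AT2G20875), EPF2 (AT1G34245), TMM (AT1G80080), ERL1 (AT5G62230), SDD1 (AT1G04110), BASL (AT5G60880) and POLAR (AT4G31805). All 10 were among the 20777 loci of the deposited table. They were followed on 12 ATH1 microarrays in wild-type plants of the Col-0 ecotype (labelled WT) and in 3 grandifolia mutants in Col-0 (gra1-D, gra2-D, and as the third gra3-D), whose series title speaks of a chromosomal duplication. Each group held 3 arrays, labelled as biological replicates, from the vegetative part of seedlings at growth stage 1.03, raised in vitro at 22 °C on MS medium under days of 16 h light and nights of 8 h. No transgene or treatment is named for any group. The whole vegetative part was extracted in bulk. A change in the number of lineage cells and a change in RNA per cell thus cannot be told apart in any result below.

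Stomata are pores in the leaf surface, each flanked by a pair of guard cells that arise from a short lineage of dividing epidermal cells. The related transcription factors SPCH, MUTE and FAMA act in turn, for entry into the lineage, for commitment to a guard mother cell and for guard cell identity. Secreted EPF peptides are read by receptors of the ERECTA family together with TMM, and a MAP kinase cascade below them restrains SPCH. BASL and POLAR are polarity proteins that sit at 1 side of the cell before its asymmetric division.

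Values were log2 expression values after RMA, the standard summary of Affymetrix probes. Differences between groups were tested with limma on all loci, and a locus was called at an adjusted p under 0.05 (Benjamini-Hochberg over the 20777 loci). Array medians ran from 6.36 to 6.43. Among tissue markers, only 1 of 5 listed mesophyll and leaf genes was measured, the antenna gene LHCB5. It stood between 14.1 and 14.2 on the log2 scale in every group. The mean over 6 floral and seed genes stayed between 3.76 and 3.94 on every array. Of 4 measured root genes 3 lay under a mean log2 value of 5, taken here as close to background, and SCR, which is also expressed in shoots, lay at about 8. In name order, chromosome 4 was raised from AT4G33510 onward in gra1-D, from AT4G31170 in gra2-D and from AT4G32830 in gra3-D. Each stretch was taken up to the last locus on the table. The median log2 differences over expressed loci were 0.85, 0.87 and 0.87. POLAR is the only one of the 10 genes in a raised stretch, and only in that of gra2-D. The other 9 lie outside every raised stretch.

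**Figure D1:**
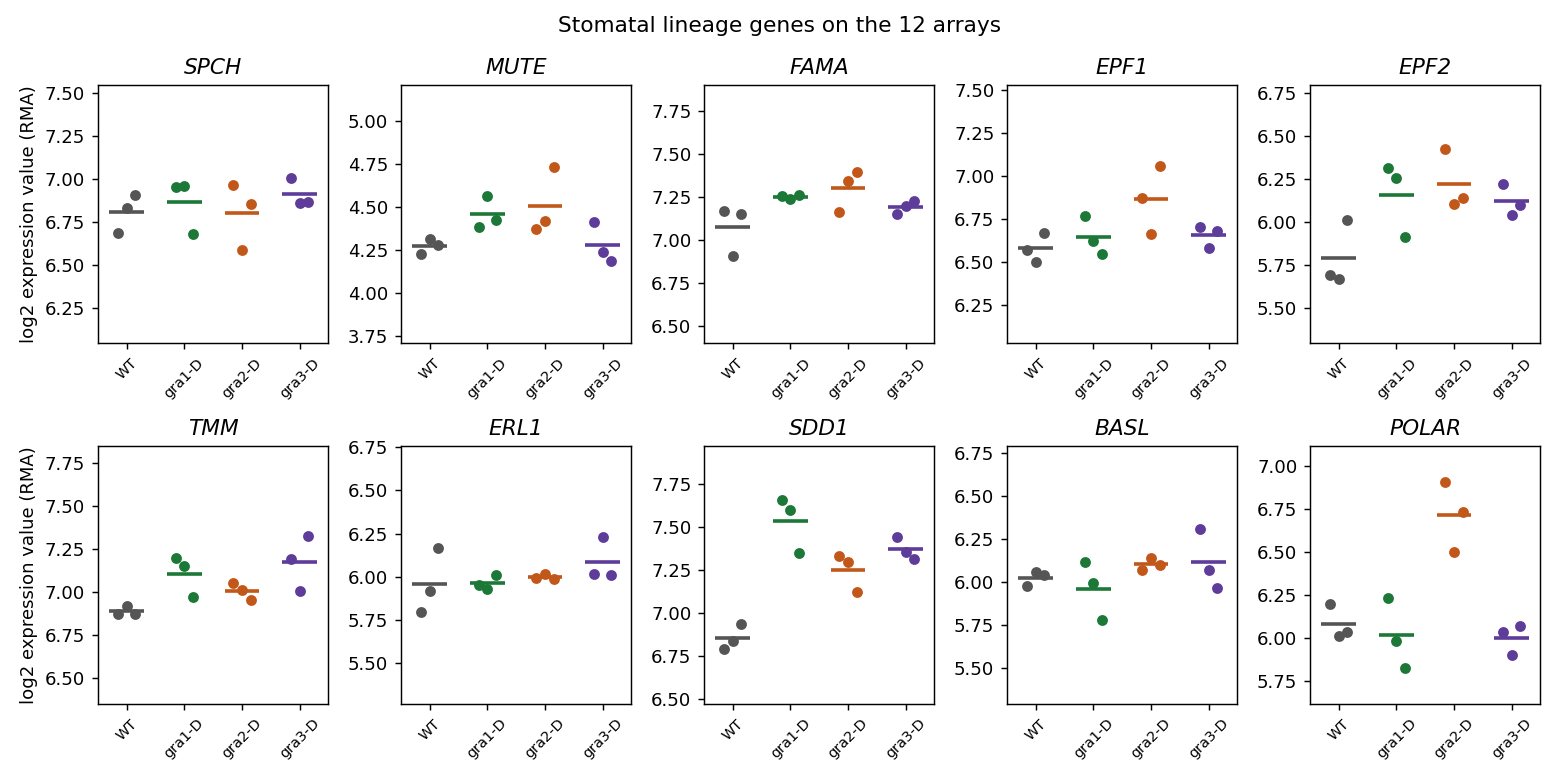
Log2 expression value (vertical axis) of the 10 stomatal lineage genes in each group (horizontal axis). Points are the 3 arrays of a group from replicate 1 on the left to replicate 3 on the right, and lines are group means. Every panel spans 1.5 log2 units, and levels are not comparable between panels. SDD1 was higher on all 9 mutant arrays than on any wild-type array, and POLAR was high on the gra2-D arrays.

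SDD1 rose in all 3 lines. SDD1 encodes a subtilisin-like protease of the extracellular space, and plants that lack it make more and clustered stomata. Its log2 values were 6.79, 6.84 and 6.93 on the wild-type arrays. They were 7.65, 7.60 and 7.35 for gra1-D, 7.33, 7.30 and 7.12 for gra2-D and 7.44, 7.35 and 7.32 for gra3-D. The highest wild-type array thus lay below the lowest mutant array. By limma, SDD1 in gra1-D was at 1.60-fold of wild type (log2 difference 0.68 ± 0.089, SE, adjusted p = 0.000212), 1.43-fold in gra3-D (0.52 ± 0.089, adjusted p = 0.00232) and 1.31-fold in gra2-D (0.40 ± 0.089, adjusted p = 0.00999). The group means were ordered wild type, gra2-D, gra3-D and gra1-D, and the mutant neighbours in that order were not called apart (adjusted p = 0.709 and 0.9999). The gra1-D arrays all lay above the gra2-D arrays, with a log2 difference of 0.29 (95% interval 0.094 to 0.48) that limma did not call (adjusted p = 0.25). SDD1 is on chromosome 1, outside the raised stretches. Limma called 2.3% of all loci higher in all 3 lines, which share their wild-type arrays, and 0.455% of the 20014 loci outside those stretches. Leaving out any 1 of the 12 arrays ended no call of SDD1 (highest adjusted p = 0.0445).

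POLAR rose in gra2-D, the line in which its locus lies in the raised stretch. Its log2 values were 6.91, 6.50 and 6.73 in gra2-D, against 6.19, 6.01 and 6.04 in wild type. They were 6.23, 5.98 and 5.82 in gra1-D and 6.03, 5.90 and 6.07 in gra3-D. Every gra2-D array lay above all 9 others, and the other 3 groups overlapped. The level of gra2-D was 1.55-fold that of wild type (log2 difference 0.63 ± 0.12, SE, adjusted p = 0.00241). Against the other lines, gra2-D was 0.71 ± 0.12 above gra3-D (adjusted p = 0.00564), and gra1-D lay at -0.70 ± 0.12 from gra2-D (adjusted p = 0.00467). In gra1-D and gra3-D the differences from wild type were -0.07 (95% interval -0.31 to 0.18) and -0.08 (-0.33 to 0.17).

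The rise of POLAR was set beside that of the genes raised with it. The gra2-D stretch held 520 expressed loci, meaning loci whose mean log2 value reached 6, and their median log2 difference was 0.87. By limma, POLAR departed from that median by -0.24 ± 0.12 (SE, adjusted p = 0.14 over the loci of the stretch). The replicate number was also fitted as a block in WT, gra1-D and gra2-D, whose arrays were taken as paired by number. With that block the departure of POLAR was called (adjusted p = 0.0446). Without the block, 130 of these loci departed at an adjusted p under 0.05, and POLAR was not among them. In all, 81 of the 520, POLAR included, had a difference no larger than that of POLAR. Among the 51 other stretch loci within 0.5 of the mean log2 value of POLAR (6.20), the median difference was 0.80 and the quartiles were 0.60 and 1.01. The nearest expressed loci before POLAR, DBR1 (AT4G31770), MGD1 (AT4G31780) and AT4G31790, stood at 0.86, 0.79 and 0.76 in gra2-D. Those after it, AT4G31810, ENP (AT4G31820) and ENODL15 (AT4G31840), stood at 0.61, 1.12 and 0.78. AT4G31810, next to POLAR, was also called lower in gra1-D (-0.48 ± 0.10, adjusted p = 0.0119) and in gra3-D (-0.56 ± 0.10, adjusted p = 0.00358), where POLAR was not.

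**Figure D2:**
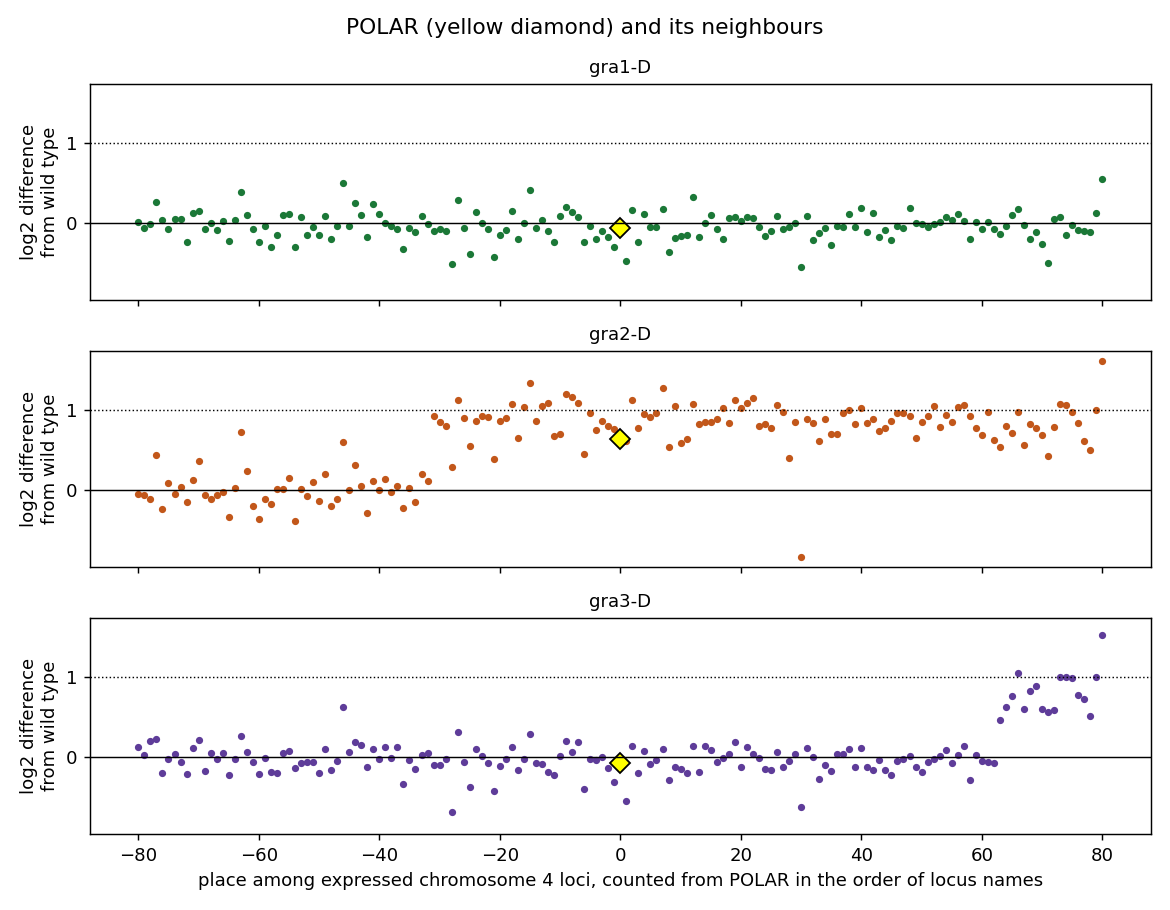
Log2 difference from wild type (vertical axis) of expressed chromosome 4 loci, against their place counted from POLAR in the order of locus names (horizontal axis), for each line. Each point is 1 locus, the diamond is POLAR and the dotted line marks a doubling. POLAR, at 0.63, lies among raised loci in gra2-D, and at -0.07 and -0.08 among unraised loci in gra1-D and gra3-D.

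The secreted peptides EPF1 and EPF2 and their receptors gave 1 call, that of EPF2 in gra2-D. EPF2 limits how many cells enter the lineage. Its log2 values were 5.69, 5.67 and 6.01 in wild type and 6.42, 6.10 and 6.14 in gra2-D. They were 6.31, 6.26 and 5.91 in gra1-D and 6.22, 6.04 and 6.10 in gra3-D. The gra2-D and gra3-D arrays lay above all wild-type arrays, and gra1-D replicate 3 fell below wild-type replicate 3. EPF2 stood at 1.35-fold in gra2-D (0.43 ± 0.12, SE, adjusted p = 0.0381), and at 0.37 ± 0.12 in gra1-D and 0.33 ± 0.12 in gra3-D (adjusted p = 0.114 and 0.163). The 3 lines were not called apart for EPF2. The gra2-D call ended without WT replicate 1 or 2, gra2-D replicate 1 or 3 or gra3-D replicate 2, and in a fit of gra2-D and WT alone (adjusted p up to 0.141). With the replicate block in WT, gra1-D and gra2-D, limma still made that call (adjusted p = 0.0485). A call in gra1-D appeared without gra1-D replicate 3 (0.49, adjusted p = 0.039). Averaged over the 3 lines, EPF2 was called higher at 0.38 ± 0.10 (adjusted p = 0.0273), as were SDD1 and 4.83% of all loci, a call of EPF2 that ended without WT replicate 1 or 2 (up to 0.138).

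EPF1, which orients the spacing divisions next to an existing stoma, had log2 values of 6.57, 6.50 and 6.67 in wild type and of 6.87, 6.66 and 7.06 in gra2-D. The lowest gra2-D array lay just under the highest wild-type array, and the difference of 0.29 ± 0.097 (SE) was not called (adjusted p = 0.0784). It was called without gra2-D replicate 2, at 0.39 (adjusted p = 0.0205), and at 0.31 and 0.29 with the arrays centred on the other chromosomes and with a replicate block over all 12 arrays (adjusted p down to 0.045), but not with the block in WT, gra1-D and gra2-D alone (adjusted p = 0.0592). In gra1-D and gra3-D EPF1 stood at 0.07 and 0.08 from wild type.

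TMM, a receptor-like protein without a kinase domain that works with the ERECTA family, read 6.88, 6.92 and 6.88 in wild type. Its log2 values were 7.20, 7.15 and 6.97 for gra1-D, 7.05, 7.01 and 6.96 for gra2-D and 7.20, 7.01 and 7.33 for gra3-D. All 9 mutant arrays lay above the wild-type arrays, yet limma called no line, with differences of 0.22 ± 0.085, 0.12 ± 0.085 and 0.29 ± 0.085 (SE, adjusted p = 0.186, 0.47 and 0.0697). In gra3-D TMM was called under 4 other settings, at adjusted p down to 0.0359, and without gra3-D replicate 2 (0.37, adjusted p = 0.0268). ERL1, an ERECTA-family receptor kinase that binds EPF1, lay between 5.79 and 6.16 on wild-type arrays and between 5.93 and 6.23 on mutant arrays. The groups overlapped, and the differences from wild type of 0.0061, 0.04 and 0.13 were not called. The upper ends of their 95% intervals were 0.20, 0.24 and 0.33.

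The transcription factors of the lineage gave no call in any line. SPCH read 6.69, 6.83 and 6.91 for wild type, 6.96, 6.96 and 6.68 for gra1-D, 6.96, 6.59 and 6.86 for gra2-D and 7.01, 6.86 and 6.87 for gra3-D. Its groups overlapped, and its differences from wild type were 0.06 (95% interval -0.17 to 0.29), -0.0063 (-0.24 to 0.22) and 0.10 (-0.13 to 0.33). FAMA read 7.17, 6.91 and 7.15 in wild type, 7.26, 7.24 and 7.26 for gra1-D, 7.17, 7.34 and 7.40 for gra2-D and 7.15, 7.20 and 7.23 for gra3-D. Only the gra1-D arrays lay wholly above wild type, and the differences were 0.18 ± 0.083, 0.22 ± 0.083 and 0.12 ± 0.083 (SE, adjusted p = 0.283, 0.108 and 0.543). In gra2-D FAMA was called without gra2-D replicate 1, at 0.29 (adjusted p = 0.0491). MUTE lay between 4.18 and 4.73 on every array, close to background, so the size of any difference is uncertain. Its fitted differences were 0.19, 0.24 and 0.0086 (adjusted p = 0.34, 0.151 and 0.982).

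BASL, the polarity protein that is not duplicated in any line, lay between 5.98 and 6.06 in wild type. It ranged from 5.78 to 6.12 in gra1-D, from 6.07 to 6.14 in gra2-D and from 5.97 to 6.31 in gra3-D. The gra2-D arrays all lay above wild type by a narrow margin, and the other 2 lines overlapped with it. Differences from wild type were -0.06 (95% interval -0.27 to 0.15), 0.08 (-0.13 to 0.29) and 0.09 (-0.12 to 0.30). BASL and POLAR, which act at the same cell pole, thus stood at 0.08 and 0.63 in gra2-D.

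**Figure D3:**
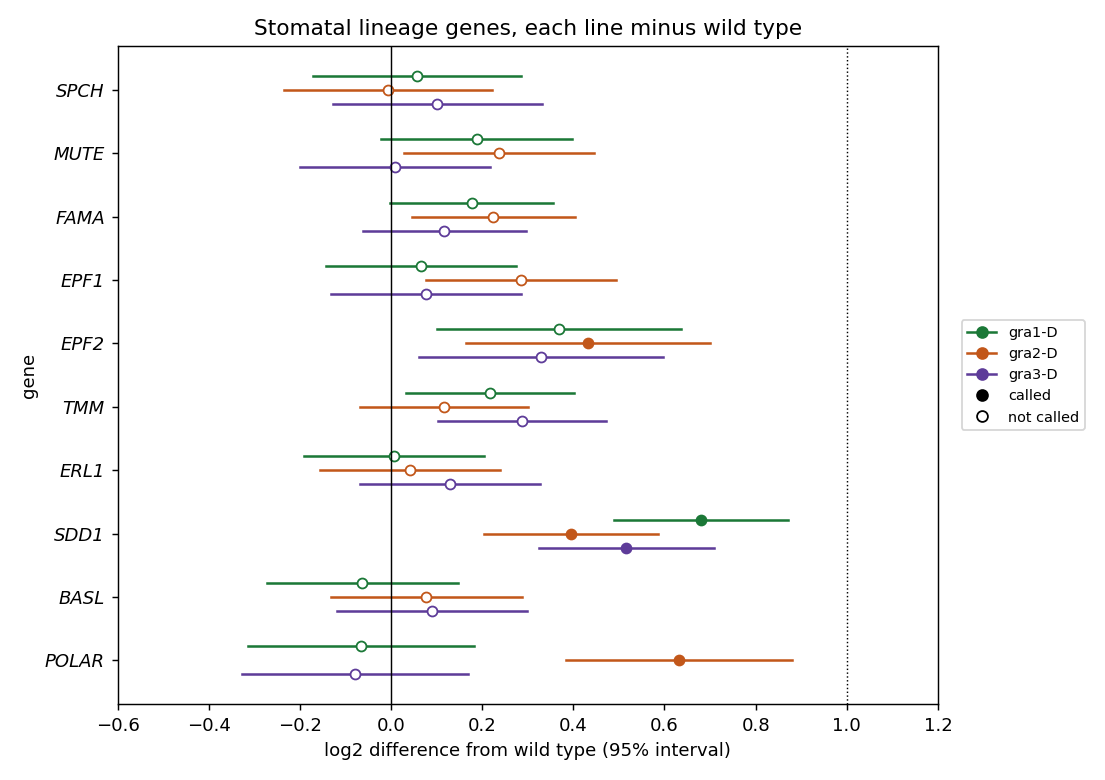
Log2 difference from wild type (horizontal axis) of the 10 genes (vertical axis) in each line, with 95% intervals from limma. Filled points were called at an adjusted p under 0.05, and the dotted line marks a doubling. SDD1 was called in all 3 lines, and EPF2 and POLAR in gra2-D.

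As a list, the 10 genes gave 1 call of a higher level for gra1-D, 3 for gra2-D and 1 for gra3-D. The shares of all loci called higher were 2.82%, 5.24% and 3.13%, and called in either direction 5.58%, 11.5% and 6.11%. None was called lower (0 by limma in each line), beside 2.76%, 6.23% and 2.97% of all loci. At an unadjusted limma p under 0.05 there were 3, 6 and 3 of the 10, all of them higher, those of gra2-D including POLAR and MUTE. The share of all loci at that threshold was not counted. With arrays centred on chromosomes 1, 2, 3 and 5, the calls over all loci in gra1-D moved from 586 higher and 574 lower to 658 and 336. For the 10 genes the median log2 difference was 0.12 (gra1-D), 0.23 (gra2-D) and 0.11 (gra3-D), where the medians over all loci were -0.015, -0.00017 and -0.019. Differences were above 0 for 8, 9 and 9 of the 10 genes, in comparisons that share the wild-type arrays. All 3 mutant arrays lay above all 3 wild-type arrays for 4 genes (gra1-D), 6 genes (gra2-D) and 3 genes (gra3-D), and below them for 0. Those of gra1-D and gra2-D include MUTE, which is close to background. Those of gra2-D also include POLAR, which lies in the raised stretch, and BASL, at a difference of 0.08. Over all loci, 8.36%, 12.3% and 8.92% lay above and 14.2%, 14.8% and 13.7% below. Between lines, POLAR was called between gra2-D and each of the others, where 1.23% (gra1-D) and 0.89% (gra3-D) of all loci were called. Of all loci, 0.991% and 0.717% were called higher in gra2-D. Between gra1-D and gra3-D limma called 0 of the 10 (0 at an unadjusted p under 0.05) and 0.221% of all loci.

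Within groups, the number of the 10 genes at their lowest on an array ran from 1 to 7. The number at their highest ran from 1 to 6. The most extreme arrays are named next, and the same counts over all loci were not made. Replicate 3 of gra1-D was the lowest of its group for 7 of the 10 genes, with a median deviation from the group mean of -0.16. Replicate 1 was the highest of its group for 6 genes in gra1-D and for 6 in gra3-D, with median deviations of 0.11 and 0.06. The 8 protoderm and pavement cell markers deviated on the same 3 arrays by -0.031, 0.074 and 0.033 in the median.

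For the called genes, the expressed loci with the closest pattern over the 12 arrays were sought by the root mean square difference of log2 values, each centred on its own mean, among 11286 loci. The 3 closest to SDD1 were AT4G35730, D2HGDH (AT4G36400) and AVA-P1 (AT4G34720), at 0.091, 0.114 and 0.119, where the SD of SDD1 over the arrays was 0.279. All 3 lie in the stretch raised in every line. Limma called 477 loci higher in all 3 lines, of which only 91 lay outside every raised stretch. A link of SDD1 to these genes was not tested. AT4G35730, the closest, differed from wild type by 0.62 (gra1-D), 0.51 (gra2-D) and 0.53 (gra3-D). Closest to EPF2 (SD 0.23) were the mitotic cyclin gene CYCB1;1 (AT4G37490), which lies in that same stretch, PUB9 (AT3G07360) and AT2G34730, at 0.0911, 0.109 and 0.11. CYCB1;1 stood at 0.45, 0.40 and 0.30 in the 3 lines. Closest to POLAR (SD 0.338) were RSZ22 (AT4G31580), AT4G32470 and PC-MYB1 (AT4G32730), at 0.108, 0.128 and 0.13, which lie in the part of chromosome 4 raised in gra2-D only. That part held 94 expressed loci. Its start was set from the same differences of gra2-D from wild type, so the place of these loci is not a separate result.

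Of 31 listed signalling partners of these genes, 26 were measured. For gra1-D limma called 0 higher and 1 lower, for gra2-D 2 and 2 and for gra3-D 1 and 1, beside the 5.58%, 11.5% and 6.11% of all loci called in either direction. The median differences of the list were -0.014, -0.050 and 0.013. BAK1 (AT4G33430), a co-receptor of many receptor kinases that also acts with the ERECTA family, lies in the stretch raised in gra2-D and gra3-D. It read 7.90, 7.86 and 7.98 in wild type and 7.84, 7.86 and 7.92 in gra1-D, then 8.95, 8.89 and 8.87 in gra2-D and 8.86, 8.79 and 8.71 in gra3-D. The arrays split into carriers and others with no overlap. BAK1 rose 1.98-fold in gra2-D (0.99 ± 0.065, SE, adjusted p = 5.68e-07) and 1.83-fold in gra3-D (0.87 ± 0.065, adjusted p = 1.51e-06), and stood at -0.04 in gra1-D.

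FLP (AT1G14350), a MYB factor that with its paralog MYB88 ends the division of the guard mother cell, fell in all 3 lines. How probes were divided between close paralogs such as FLP and MYB88, or ERL1 and ERL2, is not given in the sources used here, so their values may not be separate. FLP read 7.12, 6.50 and 6.61 for wild type, 6.24, 5.88 and 6.07 for gra1-D, 6.13, 5.69 and 5.99 for gra2-D and 6.17, 5.65 and 5.97 for gra3-D. Every mutant array lay below every wild-type array, and replicate 1 was the highest and replicate 2 the lowest of each group. In the order gra1-D, gra2-D, gra3-D the log2 differences were -0.68 ± 0.17, -0.81 ± 0.17 and -0.82 ± 0.17 (SE, adjusted p = 0.0341, 0.00696 and 0.0102). The gra1-D call ended without WT replicate 1 or 3 or gra1-D replicate 2 or 3 (adjusted p up to 0.122) and the gra3-D call without gra3-D replicate 2 (0.0595). These losses are from fits without a replicate block. With the block in WT, gra1-D and gra2-D, limma gave FLP an SE of 0.0806. Its adjusted p was then 0.000438 for gra1-D and 8.37e-05 for gra2-D. MYB88 was called lower in gra2-D at -0.28 ± 0.086 (adjusted p = 0.0488), at a level close to background in every group, and lost that call without any 1 of 11 arrays (all but gra2-D replicate 1; up to 0.192) and under 5 other settings, namely quantile normalization, centring, an intensity trend, array weights and the compared groups alone (up to 0.122). MPK3, a MAP kinase of the cascade, rose in gra2-D by 0.33 ± 0.089 (adjusted p = 0.0309), a call that ended without WT replicate 2 or 3 or any 1 gra2-D array (up to 0.117). The losses of MYB88 and MPK3 are likewise from fits without the block. With it, limma called both in gra2-D (adjusted p = 0.033 and 0.00725).

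The receptor ER, its relative ERL2, the SPCH partners ICE1 and SCRM2, the cascade kinases YDA, MKK4, MKK5 and MPK6, and the activating peptide gene EPFL9 (STOMAGEN) were not called in any line. ER stood at 0.08, -0.08 and 0.06, and EPFL9 at 0.21, 0.06 and 0.05 from wild type.

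**Figure D4:**
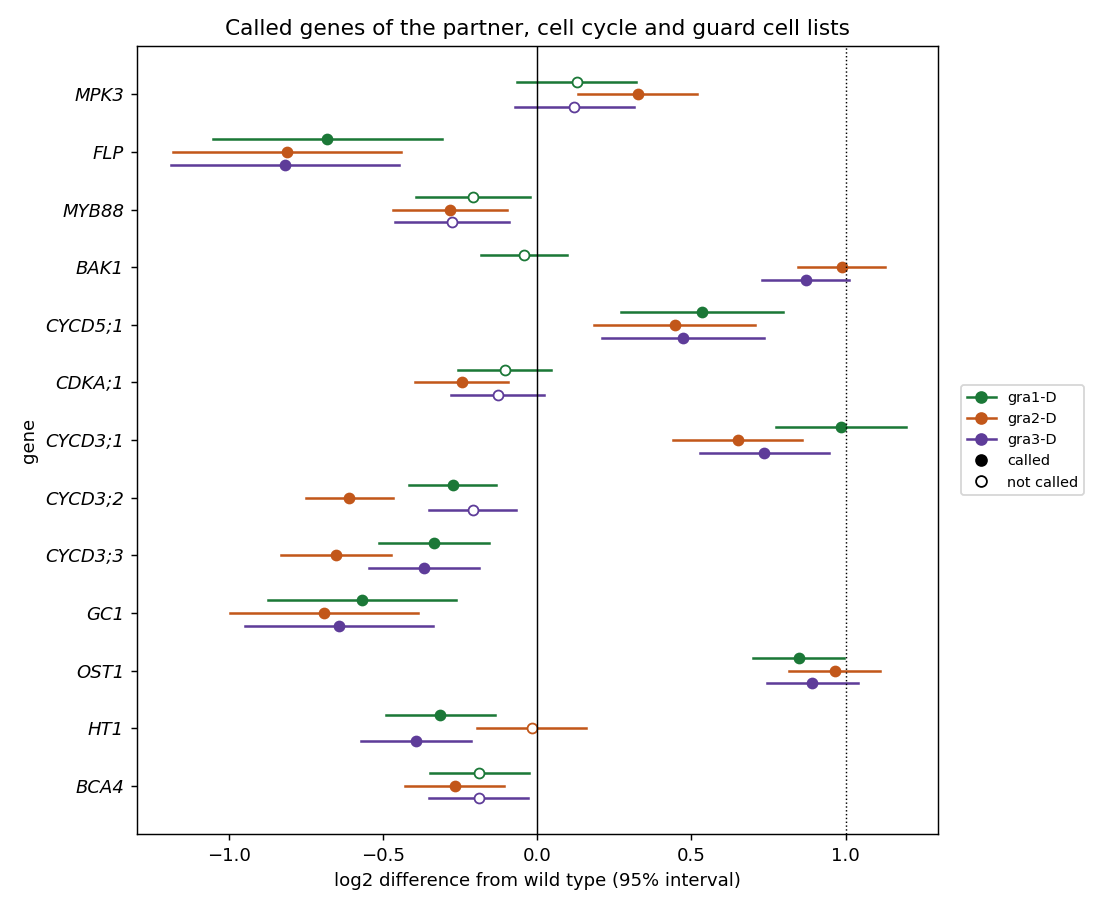
Log2 difference from wild type (horizontal axis) with 95% intervals for the genes (vertical axis) of the partner, cell cycle and guard cell lists called in at least 1 line. Filled points were called, and the dotted line marks a doubling. BAK1, OST1, CYCD3;1 and CYCD5;1 lie in raised stretches of chromosome 4, and FLP and GC1 were lower in all 3 lines.

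Among cell cycle genes tied to the lineage, 10 of 13 were measured, with 2 called higher and 2 lower for gra1-D, 2 and 3 for gra2-D and 2 and 1 for gra3-D. Of all loci 2.82%, 5.24% and 3.13% were called higher and 2.76%, 6.23% and 2.97% lower. CYCD5;1 (AT4G37630), a D-type cyclin gene that MUTE is known to induce, lies in the stretch shared by all lines. It rose by 0.53 ± 0.12, 0.45 ± 0.12 and 0.47 ± 0.12 (SE, adjusted p = 0.0194, 0.0305 and 0.0349). The gra1-D call was lost on leaving out WT replicate 1 or 3 or gra1-D replicate 2 or 3, and the gra2-D call on leaving out WT replicate 1 or 3 or gra2-D replicate 2, or with the compared groups alone. That of gra3-D was lost on leaving out any single WT array or gra3-D replicate 2 or 3, and over the 3 lines adjusted p reached 0.165. CYCD3;1, also in that stretch, rose by 0.99, 0.65 and 0.74. Its paralogs CYCD3;2 and CYCD3;3, outside it, stood at -0.27 and -0.33 (gra1-D), -0.61 and -0.65 (gra2-D) and -0.21 and -0.37 (gra3-D), with CYCD3;2 not called in gra3-D (adjusted p = 0.085). In gra1-D the falls of both lost their call without WT replicate 1 or 3 or gra1-D replicate 2 or 3, that of CYCD3;2 also without WT replicate 2 and that of CYCD3;3 without gra1-D replicate 1 (adjusted p up to 0.118). Centring, and a fit of the compared groups alone, also ended both (up to 0.0679 and 0.0778). CYCD3;3 kept no call for gra3-D when WT replicate 1 or gra3-D replicate 1 or 3 was left out (up to 0.0717) or when only WT and gra3-D were fitted (0.0558). CDKA;1, the main cyclin-dependent kinase gene, was called lower in gra2-D at -0.25 ± 0.070 (adjusted p = 0.0371), but not without WT replicate 1 or 3, gra2-D replicate 2 or 3 or gra3-D replicate 2 (up to 0.127), nor with centring or the compared groups alone (up to 0.0751). All these losses are from fits without a replicate block, and no array was left out with it. With the block in WT, gra1-D and gra2-D, limma kept the gra1-D calls of CYCD5;1, CYCD3;2 and CYCD3;3 (adjusted p = 0.0023, 0.0294 and 0.0134). In gra2-D it kept those of CYCD5;1 and CDKA;1 (adjusted p = 0.00435 and 0.0338).

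Mature guard cell genes, 14 of 16 measured, gave 1 call higher and 2 lower in each line, where 2.82% to 5.24% of all loci were called higher and 2.76% to 6.23% lower. The higher one was OST1 (AT4G33950), the kinase gene of abscisic acid signalling in guard cells, which lies in the shared stretch and rose by 0.85, 0.96 and 0.89. GC1 (AT1G22690), a gene whose promoter is used to mark guard cells, read 10.6 to 10.7 in wild type and 9.70 to 10.3 on the mutant arrays, with no overlap. It fell by 0.57 ± 0.14, 0.69 ± 0.14 and 0.64 ± 0.14 (SE, adjusted p = 0.0312, 0.00555 and 0.0137). In gra1-D that call ended without any 1 wild-type array or gra1-D replicate 3 (adjusted p up to 0.123) and with centring on the other chromosomes (0.058), and that of gra3-D on leaving out WT replicate 2 or gra3-D replicate 3 (up to 0.0626). HT1, a kinase gene of the carbon dioxide response, was lower in gra1-D (-0.31) and gra3-D (-0.39) and stood at -0.02 in gra2-D. In gra1-D the HT1 call was lost on leaving out any 1 of 8 arrays, the exceptions being replicate 3 of each line and gra3-D replicate 1 (with adjusted p as high as 0.131), and in gra3-D on leaving out gra3-D replicate 2 (0.0555). The gra1-D call was also lost with further quantile normalization, centring and an intensity trend (up to 0.0888). BCA4, a carbonic anhydrase gene of that same response, was called lower in gra2-D (-0.27 ± 0.075, adjusted p = 0.0333), but not without WT replicate 1 or 2 or gra2-D replicate 1 or 2 (up to 0.138), nor with centring or the compared groups alone (up to 0.0866). The losses of GC1, HT1 and BCA4 are from fits without a replicate block. With the block in WT, gra1-D and gra2-D, limma called GC1 and HT1 in gra1-D (adjusted p = 0.00499 and 0.01555). It also called BCA4 in gra2-D (adjusted p = 0.044). The inward potassium channel genes KAT1 and KAT2, the anion channel gene SLAC1 and the guard cell regulator MYB60 were not called in any line, and KAT1 stood at 0.06, -0.19 and -0.06.

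Markers of the other epidermal cells were read beside these results, and their part in them was not tested. Of 8 protoderm and pavement cell markers, limma called 0 for gra1-D and 0 for gra2-D (3 and 2 at an unadjusted p under 0.05) and for gra3-D called CYP86A4, a cutin synthesis gene, lower (-0.34 ± 0.074, adjusted p = 0.0117; 0.0547 without gra3-D replicate 3). The mean log2 value of the 8 markers ran from 9.36 to 9.47 on wild-type arrays, from 9.44 to 9.55 in gra1-D, from 9.40 to 9.46 in gra2-D and from 9.36 to 9.43 in gra3-D. ATML1, the homeobox gene that specifies epidermis, stood at 0.05, -0.05 and -0.02. Of 6 measured trichome genes, limma called 0 in each line (1 in each at an unadjusted p under 0.05).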

How the data were processed

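The values are log2 expression, deposited by the authors with 1 row per locus and 1 column per array, and made with RMA per the submitters' processing notes. The version of RMA and the definition that assigns probes to loci are not given in the sources used here. The scale is inferred from the range of the values. RMA quantile-normalizes all arrays together, which can pull raised genes of a large duplicated segment and all other genes towards each other, and differences are compressed near background. Arrays carry no read depth, so their number limits the precision. Arrays of a group count as replicates as labelled, and no pair of arrays held identical values.

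Group means of all 12 arrays were fitted with limma 3.58.1 in R 4.3.3 (lmFit and eBayes, 8 residual and 5.28 prior degrees of freedom), with 7 two-sided contrasts, each adjusted by Benjamini-Hochberg over 20777 loci. Intervals are 95%. The code was tested on simulated data. The start of each raised stretch was a single split of chromosome 4, using loci whose mean log2 reached 6, with changes clipped at plus or minus 1. The split chosen had the largest difference of means, weighted by the numbers of loci on its sides. All loci after the split were taken as the stretch, so its end was set by the method. Members and listed genes carry the names under which they were listed. Symbols of other loci are those of RefSeq's TAIR10.1 gene table, in which 20508 loci were found by name. Figures were drawn with matplotlib 3.10.9.

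The members, the lists (85 of 101 loci measured) and the tests were chosen with earlier results of these data known. The text names all 10 members, the listed genes called in a line or lying in a raised stretch, the 3 closest patterns of each called member and the 3 expressed loci on each side of POLAR. Listed genes named as not called (ER, ERL2, ICE1, SCRM2, YDA, MKK4, MKK5, MPK6, EPFL9, KAT1, KAT2, SLAC1, MYB60, ATML1), and the tissue markers LHCB5 and SCR, were chosen after their values were seen. Deviations of arrays with equal replicate numbers correlated over loci at 0.239 to 0.39 in the 9 pairs among WT, gra1-D and gra2-D. These arrays were therefore taken as paired by number, which the sample titles do not state. In the 9 pairs with gra3-D the range was -0.196 to 0.295. The 3 above 0.1 were those of replicate 2 (0.227, 0.237 and 0.295), and those of replicate 1 were all negative. The gra3-D arrays were not treated as paired. A fit of WT, gra1-D and gra2-D with the number as a block was added after seeing the data.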

Additional observations from a re-analysis of the deposited data

Results flagged for a closer look

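POLAR differed between the lines in the fit across all loci. It lay at a log2 difference of -0.70 in gra1-D from gra2-D (-0.6987, adjusted p = 0.00467) and of 0.71 in gra2-D from gra3-D (0.7117, adjusted p = 0.00564), both tested as contrasts between mutants. Without any 1 array these differences ran from -0.81 to -0.60 and from 0.61 to 0.82, and both stayed called. Groups of 3 arrays were too small to look for a single outlying array.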

How the results depend on the processing

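Each comparison was repeated with a replicate block, a further quantile normalization, centring on chromosomes 1, 2, 3 and 5, an intensity trend, a robust prior, array weights, minimum mean log2 values of 5 and 6, the compared groups alone (not possible for the mean of the lines, which uses all groups) and without each array. The calls of SDD1 (3 lines) and POLAR (gra2-D) held in every case. In gra3-D 2 genes, SDD1 and TMM, were called with the quantile normalization, the centring and either minimum, in place of 1. Without single arrays the counts of called genes were 1 to 2 in gra1-D and gra3-D, 2 to 4 in gra2-D, 1 to 3 for the mean of the lines, 1 for gra2-D against either other line and 0 between gra1-D and gra3-D. With the replicate block over all 12 arrays, the counts were 1 in gra1-D, 4 in gra2-D (EPF1 added) and 1 in gra3-D. With the replicate block in WT, gra1-D and gra2-D alone, chosen after seeing the data, they were 1 and 3, over all loci the gra1-D calls went from 1160 to 1820, and the departure of POLAR from its stretch (-0.24) was called (adjusted p = 0.0446). For the members, and for the listed genes called without it, this block changed no other call. Listed genes not called without it were not read under this block. The departure ranged from -0.32 to -0.14 without single arrays, and no other setting called it. Neither scaling moved the median of all loci by 0.1. The cause of these shifts was not tested.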
